A study of Mus musculus with 5 samples.

Results

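The neutrophil chemokine genes described here are Cxcl1, Cxcl2, Cxcl3 and Cxcl5 and the receptor gene Cxcr2. They were chosen by symbol, and all 5 were found once each among the 31053 genes of the matrices. The cells were isolated from the ventral skin of 28-day-old C57BL/6J mice and captured with 10x 3′ chemistry after 1 h of enzymatic digestion at 37 °C and a sort that removed DAPI-positive dead cells. The first group, Ikkb_cKO, consists of 3 libraries from mice with Prx1Cre and floxed Ikkb alleles (Prx1Cre+Ikkbf/f). The other group, WT, consists of 2 libraries from wild-type mice. Each library pooled the cells of 2 mice. Prx1Cre uses regulatory sequence of Prrx1, which is active in mesenchymal progenitors, so the deletion is directed at the fibroblast lineage and not at skin immune cells. Ikkb, in current nomenclature Ikbkb, encodes the kinase IKKβ, which marks the inhibitors of NF-kB for degradation, and the study asks about this pathway in Prx1+ fibroblasts and atopic dermatitis.

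CXCL1, CXCL2, CXCL3 and CXCL5 are small secreted chemokines that share the receptor CXCR2, which is carried mainly by neutrophils and draws them into tissue. Their genes are short, are switched on rapidly by interleukin-1, TNF and interleukin-17, mostly through NF-kB, and their mRNAs are short-lived because decay factors bind the 3′ end. In skin they are known as products of stimulated fibroblasts, macrophages, mast cells and keratinocytes.

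The 4 ligand genes lie within 146.6 kb of mouse chromosome 5 (GRCm38), in the order Cxcl5 (90759360 to 90761624), Cxcl3 (90786103 to 90789600), Cxcl1 (90891241 to 90893115) and Cxcl2 (90903871 to 90905938), all on the plus strand and each with 4 exons. Cxcr2 lies on chromosome 1 (74153989 to 74161246, plus strand). The RefSeq promoter table for GRCm38.p6 matched 4 of the 5 genes, Cxcl1, Cxcl2, Cxcl3 and Cxcr2, with windows of 300 bases. Its starts differ from the gene starts given above, and "the start" below is that of the promoter table. The 130 bases before the start of 3 ligand genes are shown because they share the word GGGAATTTCCC, which has the form of an NF-kB site and is printed in capitals.
Cxcl1, chr5:90891115-90891244, plus strand: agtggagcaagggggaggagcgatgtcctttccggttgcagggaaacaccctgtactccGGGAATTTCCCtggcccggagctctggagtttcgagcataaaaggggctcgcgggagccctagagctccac
Cxcl2, chr5:90903769-90903898, plus strand: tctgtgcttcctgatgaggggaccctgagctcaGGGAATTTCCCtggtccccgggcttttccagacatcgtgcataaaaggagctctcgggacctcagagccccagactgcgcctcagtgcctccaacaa
Cxcl3, chr5:90785971-90786100, plus strand: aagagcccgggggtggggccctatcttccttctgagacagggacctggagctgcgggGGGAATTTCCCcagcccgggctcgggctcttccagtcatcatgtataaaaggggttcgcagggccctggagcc
The word begins 71 bases before the promoter table's start in Cxcl1, 97 in Cxcl2 and 73 in Cxcl3. These distances do not hold for the gene starts given above. The printed stretches of Cxcl1 and Cxcl2 run past those gene starts (90891241 and 90903871), and that of Cxcl3 ends before its own (90786103). The word itself begins at 90891174 in Cxcl1, 90903802 in Cxcl2 and 90786028 in Cxcl3. It is the longest word common to the 3 printed stretches. Searched on both strands, it was in the windows of 3 of the 4 matched genes and in 14 of the 32851 promoter windows of the table (0.0426%). The only other word of at least 8 bases that the 3 printed stretches share is ATAAAAGG, of the TATA-box form, which was in the same 3 windows and in 1.76% of all. Words downstream of the start were not compared. Both words were taken from the printed stretches, do not overlap each other, and describe letters and not measured sites.

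The 5 libraries held 945 to 2523 barcodes and 2163166 to 9738296 UMIs in Ikkb_cKO, against 3206 to 3393 barcodes and 14659158 to 16773096 UMIs in WT. After filtering, 10390 of 11084 barcodes were kept. Clusters were named from marker genes only, without using the 5 genes, so a fibroblast-like, myeloid-like or lymphocyte-like cell is one whose cluster was led by such markers. The fibroblast-like class had 492 to 868 cells per Ikkb_cKO library and 1772 to 1900 per WT library. Median UMIs per fibroblast-like cell were 1551, 1766.5 and 2460 in Ikkb_cKO libraries 1, 2 and 3, against 4828 and 5260.5 in WT libraries 1 and 2. The third Ikkb_cKO library stood apart from the other two in depth and in cluster make-up, and values without it are given beside the results that change most. Libraries shared 0 to 17 cell barcodes per pair. The libraries of a genotype differed by more than sampling noise (chi-square per degree of freedom 1.52 to 15.0 in the fibroblast-like class). The labels give neither litters nor dates, so the p-values rest on the spread between libraries, part of which may be technical. Levels are in CPM, the gene's UMIs scaled to a common total of the same class and library. A lower CPM of a class cannot be told apart from fewer expressing cells within it. The libraries overlapped in the targeted gene: Ikbkb had 15.97, 20.5 and 15.8 CPM in fibroblast-like cells of Ikkb_cKO, against 14.1 and 17.7 CPM in WT (log2 fold change 0.08, SE 0.22, adjusted p = 0.814, edgeR). A 3′ tag can come from outside the deleted exons, so this checks neither the deletion nor the labels.

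The 4 ligands were found in different cells. Cxcl1 was a fibroblast transcript in both genotypes, with 93.2% of its 5162 UMIs in Ikkb_cKO and 96.3% of its 38265 UMIs in WT coming from fibroblast-like cells. Cxcl2 was divided between myeloid-like, fibroblast-like and lymphocyte-like cells. In Ikkb_cKO the myeloid-like class held 46.4% of 6030 Cxcl2 UMIs and the lymphocyte-like class 31.8%, while in WT the myeloid-like class held 72.0% of 21737 UMIs and the lymphocyte-like class 1.44%. Lymphocyte-like cells held 75.4% of the 483 Cxcl3 UMIs in Ikkb_cKO, and myeloid-like cells held 55.7% of the 70 in WT. All 97 Cxcl5 UMIs in Ikkb_cKO and all 18 in WT were in fibroblast-like cells. Of the 53 Cxcr2 UMIs, 36 were in the 25 cells with neutrophil markers. These shares also follow the number of cells sampled in each class, which differed between the genotypes (lymphocyte-like cells numbered 918 in Ikkb_cKO and 244 in WT).

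**Figure D1:**
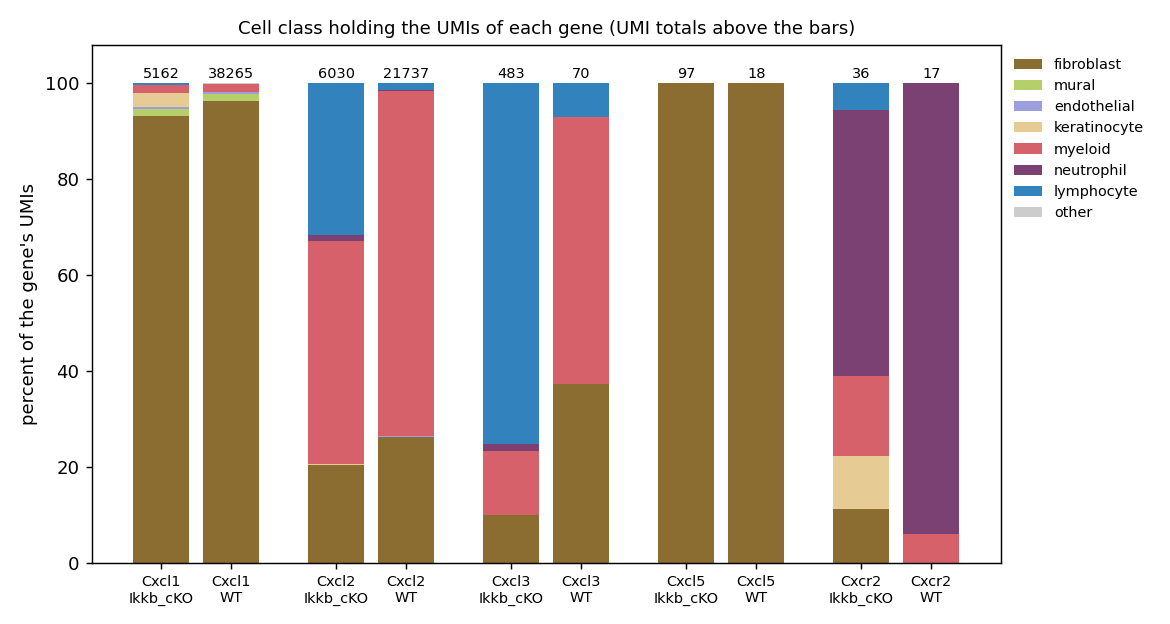
Percent of the UMIs of each gene (vertical axis) held by each cell class (colours), for Ikkb_cKO and WT, with the gene's UMI total above each bar. Fibroblast-like cells hold nearly all Cxcl1 and all Cxcl5, while the lymphocyte-like part of Cxcl2 and Cxcl3 is larger in Ikkb_cKO.

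Across cell classes, Cxcl1 was high in mesenchymal and vascular cells and low in immune cells. In Ikkb_cKO only 3 classes reached 20 cells in each library. Fibroblast-like cells (1114 CPM) stood above myeloid-like cells (25.6 CPM), which overlapped with lymphocyte-like cells (14.95 CPM). In WT the order was mural-like cells (mean 2100 CPM), fibroblast-like cells (1668 CPM), endothelial-like cells (544 CPM) and myeloid-like cells (118 CPM), leaving aside the unnamed clusters, with no overlap between neighbours over the 2 libraries. Mural-like cells, which surround blood vessels, had 87.0, 98.5 and 658 CPM in Ikkb_cKO from 3, 4 and 21 cells, against 2112 and 2088 CPM in WT from 51 cells each. In the third Ikkb_cKO library, 10 of those 21 cells were in the Rgs5 and Acta2 cluster 20 that held every mural-like cell of the other libraries, and that cluster alone had 2220 CPM there. Endothelial-like cells had 88.6, 88.8 and 159 CPM in Ikkb_cKO from 9, 10 and 39 cells, against 506 and 582 CPM in WT from 69 and 72 cells. These 2 classes were too small in Ikkb_cKO for a test. No Cxcl1 UMI was found in 126 mast-like or 44 B-cell-like cells, which allows shares of up to 2.38% and 6.82% of cells with a UMI (counting error only, as for all such limits here).

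Keratinocyte-like cells, a known source of these chemokines in inflamed skin, were numerous in the third Ikkb_cKO library alone. They held 145 of its 2443 Cxcl1 UMIs (5.94%), against 87.3% in fibroblast-like and 2.78% in myeloid-like cells. Cxcl1 had 50.7 CPM in the 301 keratinocyte-like cells of the third Ikkb_cKO library, and the other 4 libraries had 8 to 27 such cells with 0 or 1 UMI each. Cxcl3 and Cxcl5 had no UMI in 360 keratinocyte-like cells, which allows up to 0.833% of cells with a UMI. Cxcl2 had 1 UMI in 126 mast-like cells, although mast cells are a known source of it.

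**Figure D2:**
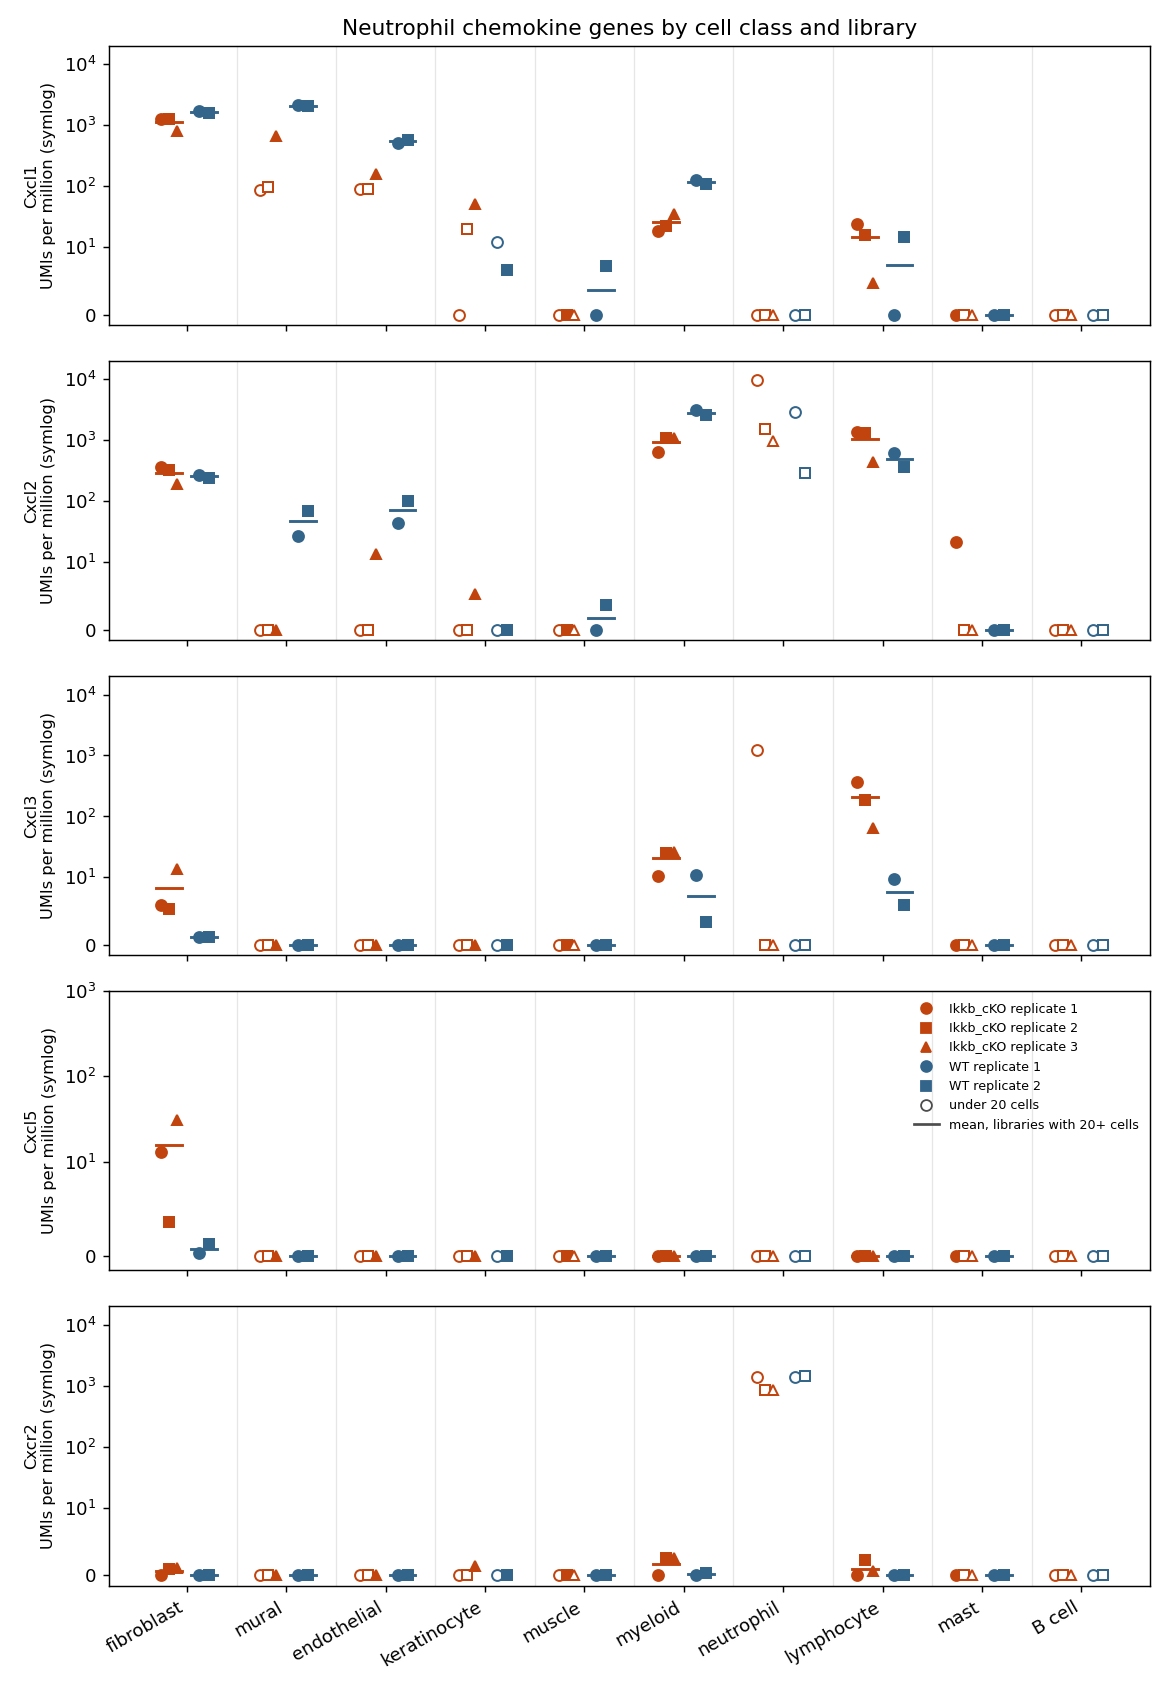
Level of each gene in CPM (vertical axes, symmetric log scale, linear below 10) by cell class, 1 point per library, Ikkb_cKO left of WT in each class; open points are libraries with under 20 cells of the class and lines are means over the others. Cxcl1 is highest in fibroblast-like, mural-like and endothelial-like cells, Cxcl2 in myeloid-like cells and the lymphocyte-like and neutrophil cells, and Cxcr2 stands out in neutrophil cells alone.

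In the fibroblast-like class as a whole, Cxcl1, the main fibroblast ligand, was modestly lower in Ikkb_cKO. Its level was 1244, 1277 and 819.9 CPM in Ikkb_cKO libraries 1, 2 and 3, against 1718 and 1618 CPM in WT libraries 1 and 2. All 3 Ikkb_cKO libraries lay below both WT libraries, as libraries did not overlap for 61.0% of the genes tested. The log2 fold change was -0.63 (SE 0.19), with an adjusted p of 0.0383 in edgeR's quasi-likelihood test across 10537 genes. At the adjusted threshold of 0.05, 35.3% of those genes were called, 17.4% as higher and 17.9% as lower in Ikkb_cKO, so a call is frequent in this class. Of the 5 genes 4 had enough UMIs for the test in fibroblast-like cells, and 3 of these 4 were called, Cxcl1 as lower and Cxcl3 and Cxcl5 as higher. The Cxcl1 call in edgeR did not hold without Ikkb_cKO library 1 (adjusted p = 0.0694), Ikkb_cKO library 2 (0.0661), WT library 1 (0.22) or WT library 2 (0.152), nor with the doublets kept (0.0561). The 12 mural markers, of which 9 to 12 were detected in an Ikkb_cKO library and 11 in each WT library, summed to 142 to 247 CPM in the fibroblast-like cells of Ikkb_cKO, against 456 to 473 CPM in WT. The median mitochondrial share of these cells was 3.23% to 3.49% in Ikkb_cKO, against 2.09% to 2.13% in WT. The part of either in the Cxcl1 level was not tested.

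The share of fibroblast-like cells with a Cxcl1 UMI overlapped between the genotypes at equal depth. With each cell thinned to 1000 UMIs, the share was 50%, 50.4% and 24.7% in Ikkb_cKO, against 45.2% and 43.2% in WT. The third Ikkb_cKO library alone was below the WT libraries. The means were 41.7% ± 14.7 and 44.2% ± 1.39 (SD, n = 3 and 2). The exact two-sided permutation p was 1, where the smallest this design allows is 0.1. Unthinned, the shares were 47.6% ± 15.4 in Ikkb_cKO and 58.8% ± 0.05 in WT. Thinning left out 390 of 1889 fibroblast-like cells in Ikkb_cKO and 168 of 3672 in WT.

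The fibroblast clusters showed that the class mean joins cells with very different Cxcl1 levels, whose proportions differed between the genotypes. Clusters 0 and 4, led by Col6a5, held 27.4% to 33.5% and 6.22% to 43.7% of the fibroblast-like cells of Ikkb_cKO libraries, against at most 0.113% and 0% in WT. Cluster 4, which also expressed Ptx3 and Fn1, was among the clusters with the most Cxcl1: 1795, 1850 and 3554 CPM in its 198, 215 and 54 Ikkb_cKO cells, with no WT cell. Cluster 0 had 776, 747 and 1163 CPM in Ikkb_cKO, where only 4 WT cells fell. Cluster 14, led by Coch and Mfap4, had 3 listed markers of the Crabp1 and Postn dermal type and 2 of the Coch type. It held 43.4% of the fibroblast-like cells of the third Ikkb_cKO library and only 59.96 CPM of Cxcl1 there, against 45.4 and 44.2 CPM in WT. That library thus had both the cells with the highest level and many with almost none.

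Several WT-rich clusters were high in Cxcl1. The Pi16 and Dpp4 cluster 24, a fascia type of fibroblast, had 1 to 3 cells in each of the 3 Ikkb_cKO libraries, against 264 and 311 cells in WT with 3000 and 2553 CPM. The Fabp4 preadipocyte-type cluster 10 had 1312 and 1064 CPM in 39 and 26 cells of Ikkb_cKO libraries 1 and 2, against 1831 and 1736 CPM in WT. Cluster 5, led by Pltp, Tgfbi and Gpx3, had 195, 165 and 122 CPM from 35, 15 and 84 cells in Ikkb_cKO, against 1141 and 1024 CPM from 459 and 401 cells in WT. Every Ikkb_cKO library was far below both WT libraries there. Cluster 25, with Acta2 and cell-cycle genes, had 163, 136 and 71.8 CPM from 9, 11 and 14 Ikkb_cKO cells, against 1264 and 1413 CPM from 56 WT cells each. Both clusters had fewer than 20 cells in a library and were not tested.

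Cluster 17, led by Mgp, Cilp and Thbs4, was the one fibroblast cluster with at least 20 cells in every library. Its Cxcl1 level was 763, 776 and 2082 CPM in Ikkb_cKO, against 1694 and 1588 CPM in WT. The third Ikkb_cKO library was above and the other two were below the WT libraries. The log2 fold change was -0.48 (SE 0.40, adjusted p = 0.368, edgeR, 95% interval -1.75 to 0.80), and 43.4% of the 1704 genes tested there were called. Without the third Ikkb_cKO library the log2 fold change was -1.23 (adjusted p = 7.36e-10, edgeR).

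**Figure D3:**
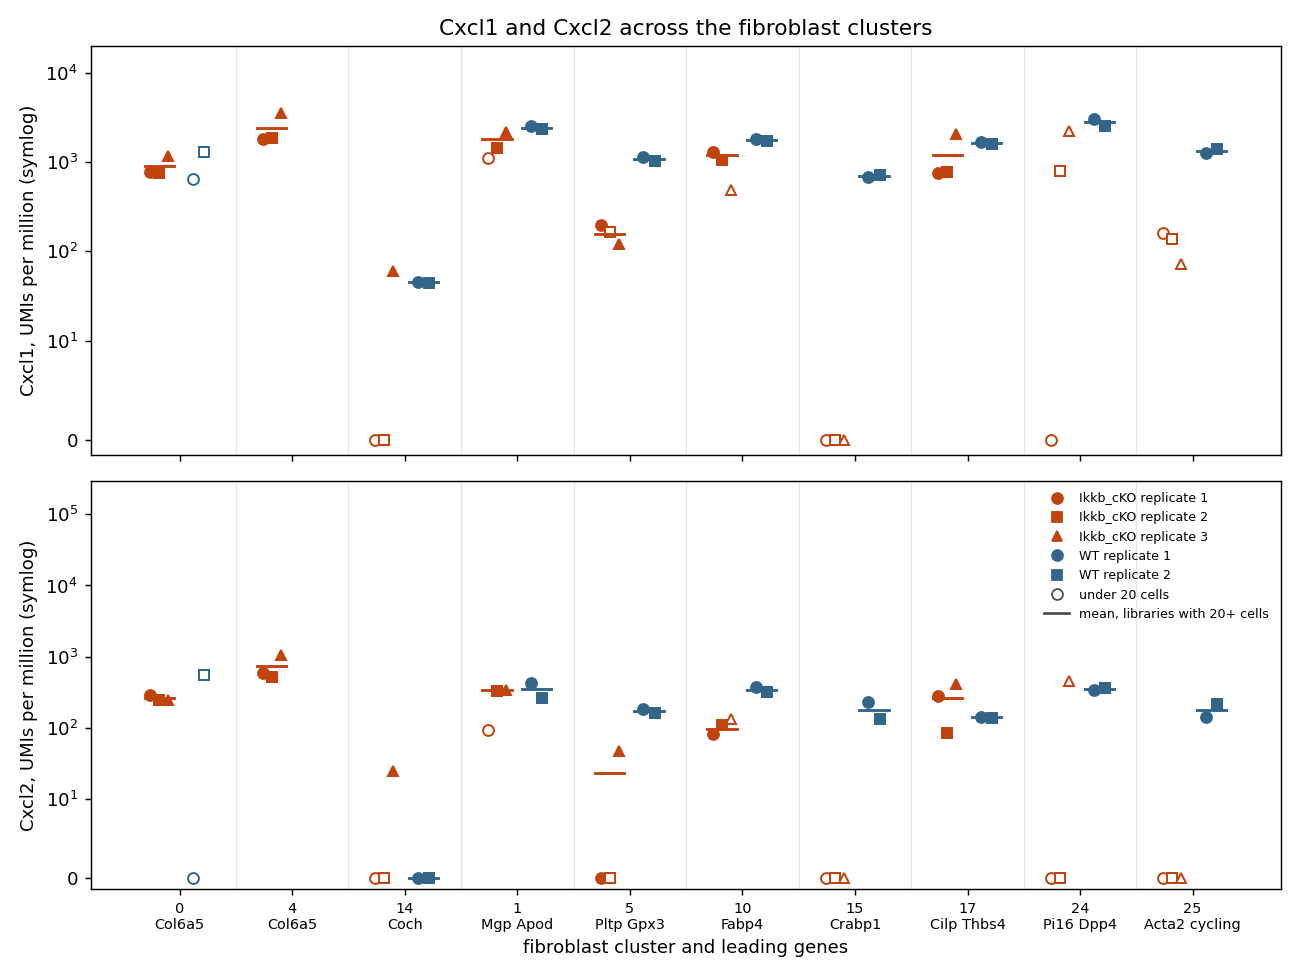
Cxcl1 (top) and Cxcl2 (bottom) in CPM (symmetric log scale, linear below 10) in each fibroblast cluster, 1 point per library, Ikkb_cKO left of WT; open points are libraries with under 20 cells and lines are means over the others. Clusters 0 and 4 are filled mostly by Ikkb_cKO cells and clusters 5, 10, 15, 24 and 25 by WT cells, and clusters 5 and 25 show wide Cxcl1 gaps. Cluster 14 is filled mostly by the third Ikkb_cKO library, and its share of fibroblast-like cells was 1.70% and 2.64% in Ikkb_cKO libraries 1 and 2, against 2.37% and 2.95% in WT.

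Cxcl2 in fibroblast-like cells overlapped between the genotypes. Its level was 359, 329 and 192 CPM in Ikkb_cKO, against 274 and 243 CPM in WT, with the third Ikkb_cKO library the lowest. The log2 fold change was 0.13 (SE 0.25, adjusted p = 0.704, edgeR), with a 95% interval of -0.67 to 0.94, and without the third Ikkb_cKO library it was 0.34 (adjusted p = 0.0036). In cluster 4 it reached 589, 518 and 1066 CPM in Ikkb_cKO, in each library the highest of the fibroblast clusters with at least 20 cells. In cluster 17 it was 276, 82.7 and 413 CPM in Ikkb_cKO, against 142 and 136 CPM in WT (log2 fold change 0.88, SE 0.36, adjusted p = 0.0776, edgeR), and without the second Ikkb_cKO library the adjusted p was 0.000851. Summed over the 20 listed immediate early and dissociation genes, which rise during tissue digestion, fibroblast-like cells had 15493 to 23692 CPM in Ikkb_cKO, against 13729 to 14959 CPM in WT; the part of this in the Cxcl2 level was not tested.

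Fibroblast-like cells that carried Cxcl2 mostly carried Cxcl1 too. At 1000 UMIs per cell, Cxcl1 was found in 68.9% to 82.8% of Cxcl2-positive cells of Ikkb_cKO libraries, and in 19.8% to 46.6% of the other cells. In WT it was found in 77.4% to 78.9% of Cxcl2-positive cells and in 39.7% to 41.4% of the others. Cells of different clusters are pooled in these shares. Within cluster 4 the shares were 75.6% to 96.0% and 64.4% to 71.1% in Ikkb_cKO.

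In myeloid-like cells, both main ligands fell in Ikkb_cKO. Cxcl2, the ligand characteristic of macrophages, had 637, 1079 and 1114 CPM in Ikkb_cKO, against 3091 and 2613 CPM in WT. Every Ikkb_cKO library was below both WT libraries. The difference was -1.57 on the log2 scale (SE 0.22, adjusted p = 0.00111, edgeR). Of the 9003 genes tested in this class 17.7% were called, 8.53% as higher and 9.22% as lower in Ikkb_cKO, and the libraries did not overlap for 44.9%. Of the 5 genes 3 had enough UMIs for the test, and all 3 were called. At 1000 UMIs per cell, 27.9% to 33.6% of the myeloid-like cells of Ikkb_cKO libraries had a Cxcl2 UMI, against 54.5% to 56.5% in WT (exact two-sided permutation p = 0.1, the smallest possible). Thinning left out 190 of 845 myeloid-like cells in Ikkb_cKO and 223 of 1672 in WT. In the Cxcl2-rich cluster 21 described below it kept 57 of 112 cells in Ikkb_cKO library 3, against 367 of 444 and 360 of 446 in WT. The part of this loss in the shares was not tested. The 26 myeloid markers were lower in all myeloid-like cells, with sums of 59202 to 67517 CPM in Ikkb_cKO, against 89031 to 91784 CPM in WT. Their median mitochondrial share was 2.64% to 3.17% in Ikkb_cKO, against 2.28% to 2.34% in WT. The part of these differences in the chemokine levels was not tested.

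Cxcl1 in myeloid-like cells was 18.6, 22.6 and 35.6 CPM in Ikkb_cKO, against 127 and 109.7 CPM in WT. The groups did not overlap, and the log2 fold change was -2.01 (SE 0.27, adjusted p = 0.000704, edgeR). The 15 fibroblast markers summed to 130 to 211 CPM in the myeloid-like cells of Ikkb_cKO, against 508 to 536 CPM in WT, and so were lower there too. The 13 endothelial markers were also lower, at 40.1 to 80.2 CPM in Ikkb_cKO, against 207 to 256 CPM in WT. The part of either list in the Cxcl1 level was not tested. Per 100 fibroblast-marker UMIs, myeloid-like cells had 10.7 to 22.4 Cxcl1 UMIs in Ikkb_cKO and 20.5 to 25.04 in WT, whereas fibroblast-like cells had 1.08 to 2.58 in Ikkb_cKO and 2.72 to 2.85 in WT. Cxcl1 was also found mainly in myeloid-like cells that carried Cxcl2. At 1000 UMIs per cell it was in 19 of 212 Cxcl2-positive cells of Ikkb_cKO (8.16% to 11.1% per library, other cells 0% to 2.67%) and in 112 of 804 of WT (13.8% to 14.04%, other cells 0.592% to 2.28%).

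Levels within the myeloid clusters differed in whether they separated the genotypes. Cluster 6, led by Retnla and Ear2, had 1747, 2092 and 1831 CPM of Cxcl2 in Ikkb_cKO, against 3503 and 3807 CPM in WT (log2 fold change -1.03, SE 0.16, adjusted p = 3.16e-05, edgeR). Its Cxcl1 level was 39.7, 56.2 and 56.8 CPM in Ikkb_cKO, against 153 and 206 CPM in WT (log2 fold change -1.83, SE 0.29, adjusted p = 4.73e-05, edgeR). In this cluster 15.1% of 5627 genes were called, and the libraries did not overlap for 39.6%. The median mitochondrial share in cluster 6 was 2.75% to 3.64% in Ikkb_cKO, against 2.32% to 2.34% in WT. Its myeloid markers summed to 64591 to 76174 CPM in Ikkb_cKO, against 107887 to 108593 CPM in WT. The 15 fibroblast markers summed to 67.0 to 344 CPM there in Ikkb_cKO, against 237 to 509 CPM in WT. Per 100 fibroblast-marker UMIs, cluster 6 had 16.3 to 84.8 Cxcl1 UMIs in Ikkb_cKO and 40.5 to 64.4 in WT, which overlapped. The part of these differences in the chemokine levels of cluster 6 was not tested. Cluster 21, led by C1q genes, Pf4 and Folr2, had the highest Cxcl2 of the named myeloid clusters, with 4007, 3684 and 4822 CPM in 8, 21 and 112 Ikkb_cKO cells, against 4720 and 3837 CPM in 444 and 446 WT cells. Its groups overlapped, and with 8 cells in a library it was not tested. The cycling cluster 2, also not tested, had 276, 405 and 262 CPM of Cxcl2 from 19, 11 and 41 cells in Ikkb_cKO, against 919 and 1057 CPM from 28 and 38 cells in WT, with no overlap. The 2 dendritic-type clusters, 9 and 19, had 0 to 66.2 CPM of Cxcl2 in Ikkb_cKO, against 0 to 78.6 CPM in WT, and in cluster 9 the log2 fold change was -0.01 (SE 0.58, adjusted p = 0.995, edgeR, 95% interval -1.85 to 1.82, with 6.38% of 4091 genes called). Cluster 21 held 5.88% to 20.5% of the myeloid-like cells in Ikkb_cKO, against 51.9% to 54.7% in WT, and cluster 6 held 40.4% to 47.5% in Ikkb_cKO, against 23.95% to 25.7% in WT. The part of this make-up in the class difference was not tested.

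Cxcl3 moved the other way. In myeloid-like cells it had 10.6, 25.1 and 26.2 CPM in Ikkb_cKO, against 11.1 and 3.45 CPM in WT, and the groups overlapped slightly (log2 fold change 1.70, SE 0.46, adjusted p = 0.0280, edgeR). The 18 lymphocyte markers summed to 143 to 231 CPM in these cells in Ikkb_cKO, against 125 to 130 CPM in WT, and their part in the Cxcl3 level was not tested. These levels rest on 64 UMIs in Ikkb_cKO and 39 in WT, and the call was lost in DESeq2 (adjusted p = 0.116), at equal cell numbers (0.198), with cells thinned to 1000 UMIs (0.0601, a value that moved with the random draw) and without Ikkb_cKO library 2 (0.0618), Ikkb_cKO library 3 (0.121) or WT library 2 (0.368). In cluster 6 it had 29.8, 42.1 and 65.5 CPM in Ikkb_cKO, against 13.2 and 13.6 CPM in WT (log2 fold change 1.92, SE 0.41, adjusted p = 0.00171, edgeR). The cluster 6 call was lost without Ikkb_cKO library 3 (0.157), WT library 1 (0.105) or WT library 2 (0.102). Within this macrophage cluster Cxcl1 and Cxcl2 were thus called lower and Cxcl3 higher. The sequences of Cxcl1, Cxcl2 and Cxcl3 are similar, and whether reads shared between them were counted depends on settings not given in the sources used here.

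Among the classes with 20 or more cells per library, Cxcl3 was highest in lymphocyte-like cells of Ikkb_cKO. The class had 374, 189 and 64.0 CPM in Ikkb_cKO, against 9.70 and 5.86 CPM in WT, from 364 UMIs in 62 cells and 5 UMIs in 4 cells. The libraries did not overlap, as was so for 49.0% of the 5209 genes tested in this class. The log2 fold change of 4.82 had a wide error (SE 1.49), and the adjusted p was 0.136 in edgeR, where 11.0% of genes were called, 6.64% as higher and 4.34% as lower in Ikkb_cKO. It was past the threshold in DESeq2 (adjusted p = 0.00096), at equal cell numbers (0.0218) and without Ikkb_cKO library 1 (0.0293) or 3 (2.54e-05). Cxcl2 in the same class had 1346, 1329 and 443 CPM in Ikkb_cKO, against 614 and 360 CPM in WT (log2 fold change 1.22, SE 0.68, adjusted p = 0.333, edgeR, 95% interval -0.94 to 3.38). Without the third Ikkb_cKO library its adjusted p was 4.95e-05. The median mitochondrial share of lymphocyte-like cells was 2.89% to 4.06% in Ikkb_cKO, against 2.32% to 2.37% in WT, and its part in these levels was not tested.

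Cluster 3 held 1775 of the 1915 lymphocyte-like Cxcl2 UMIs in Ikkb_cKO and 303 of 313 in WT, and 332 of 364 Cxcl3 UMIs in Ikkb_cKO and all 5 in WT. It was led by Areg, Il13, Il5 and Gata3, genes of type 2 lymphoid cells. This cluster made up 38.7% to 60.9% of the lymphocyte-like cells in Ikkb_cKO, against 20% to 22.8% in WT. Within it the Cxcl2 levels overlapped: it had 2046, 2062 and 1119 CPM in Ikkb_cKO, against 3405 and 2049 CPM in WT (log2 fold change -0.50, SE 0.36, adjusted p = 0.485, edgeR, 95% interval -1.65 to 0.66). Cxcl3 had 572, 212 and 176 CPM in Ikkb_cKO from 185, 53 and 94 UMIs, against 56.8 and 33.3 CPM in WT from 3 and 2 UMIs in 26 cells each. Its log2 fold change there was 2.98 (SE 1.096, adjusted p = 0.188, edgeR), with 10.8% of 3141 genes called, and without Ikkb_cKO library 1 the adjusted p was 0.0217. Its libraries did not overlap, as for 46.8% of those genes. The neutrophil markers S100a8, S100a9 and Ly6g, and Cxcr2, had no UMI in cluster 3 in any library. Il1r2, a decoy receptor of interleukin-1 that is also on the neutrophil list, had 884, 833 and 499.6 CPM there in Ikkb_cKO, against 0 CPM in WT, and is named after its values were seen. At 1000 UMIs per cell, 27 of the 37 cluster 3 cells of Ikkb_cKO with a Cxcl3 UMI also had Cxcl2.

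The other lymphocyte clusters had little of either gene. Cluster 13, with Gzma and Nkg7, had 0 to 21.5 CPM of Cxcl2 in Ikkb_cKO and 0 to 13.9 CPM in WT. In the Ctla4 and Icos cluster 8, the second Ikkb_cKO library had 1287 CPM of Cxcl2 and 560 CPM of Cxcl3 from 17 cells, and the other libraries had at most 162 CPM and 21.6 CPM.

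**Figure D4:**
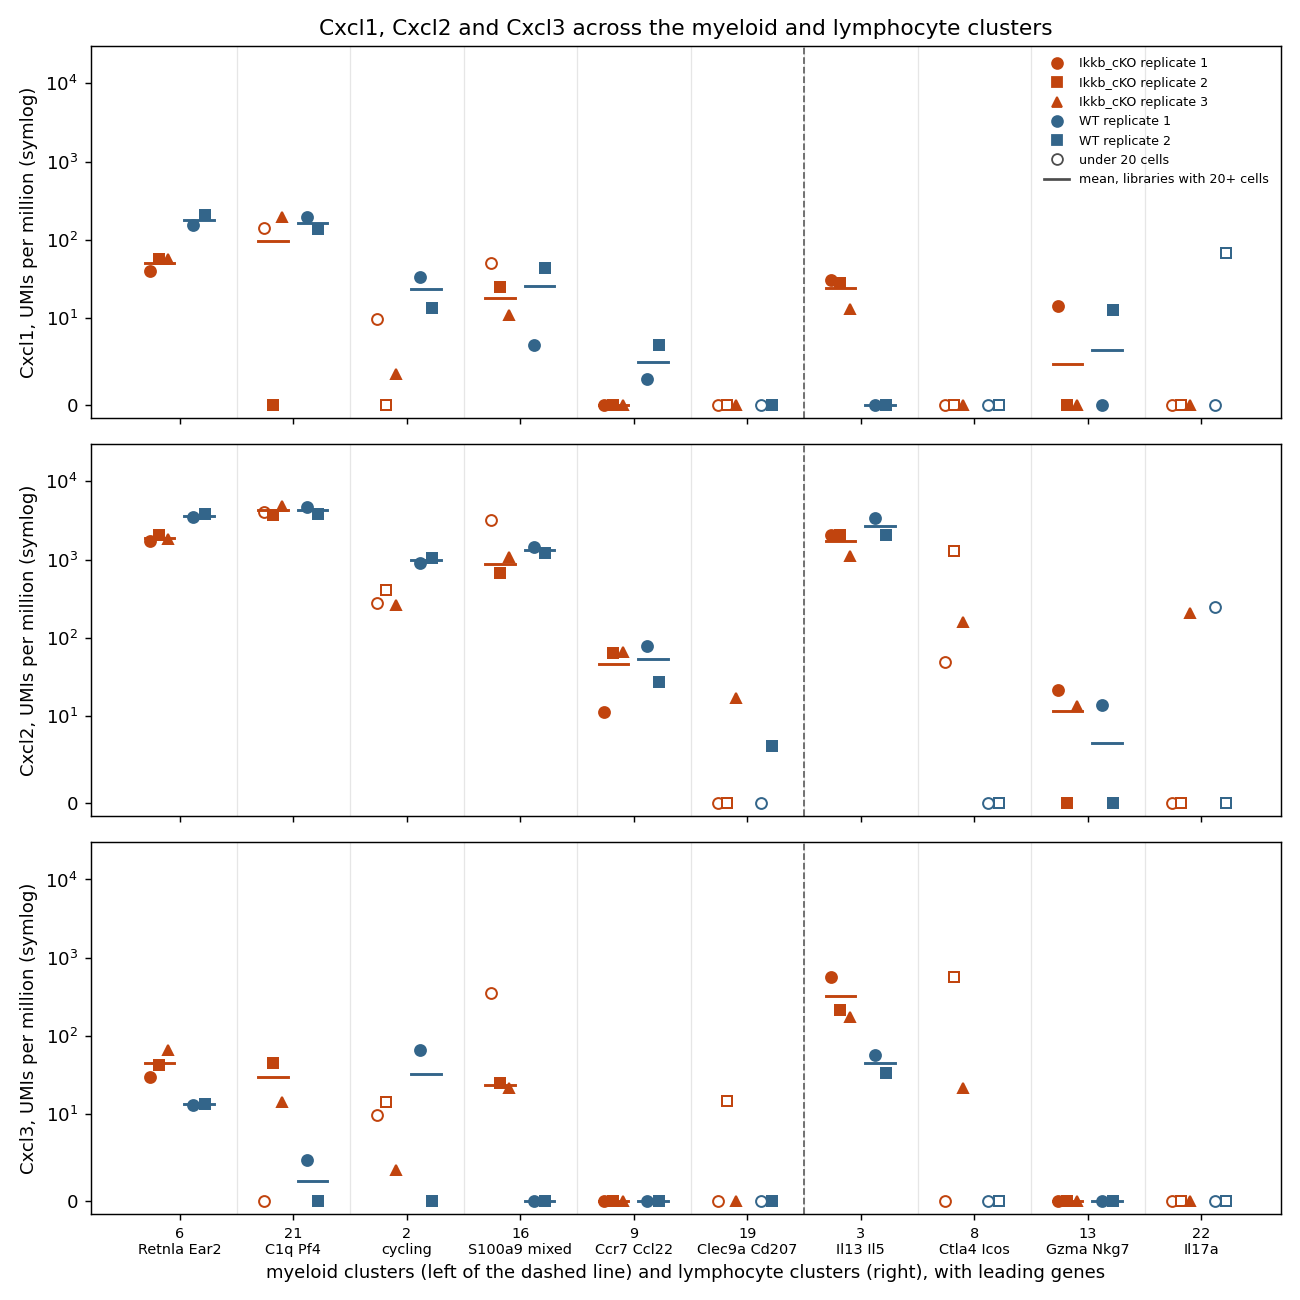
Cxcl1, Cxcl2 and Cxcl3 in CPM (symmetric log scale, linear below 10) in the myeloid clusters (left of the dashed line) and lymphocyte clusters (right), 1 point per library, Ikkb_cKO left of WT; open points are libraries with under 20 cells and lines are means over the others. In cluster 6 Cxcl1 and Cxcl2 are lower and Cxcl3 higher in Ikkb_cKO, and in cluster 3 all Ikkb_cKO libraries are above WT in Cxcl3 while Cxcl2 overlaps.

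In fibroblast-like cells, Cxcl3 and Cxcl5 were both rare and both called higher. Cxcl3 had 5.99, 5.36 and 13.8 CPM in Ikkb_cKO, against 1.16 and 1.18 CPM in WT, from 48 UMIs in 19 cells and 26 UMIs in 11 cells. Its log2 fold change was 2.98 (SE 0.49, adjusted p = 0.00557, edgeR), and the adjusted p was 0.0812 without WT library 1 and 0.0813 without WT library 2. The 18 lymphocyte markers summed to 12.3 to 17.9 CPM in fibroblast-like cells of Ikkb_cKO, against 5.75 to 7.28 CPM in WT, and their part in the Cxcl3 level was not tested. Cxcl5 had 12.97, 3.57 and 30.8 CPM in Ikkb_cKO, against 0.291 and 1.27 CPM in WT. These were 13, 4 and 80 UMIs in 2, 2 and 15 cells of Ikkb_cKO, against 3 and 15 UMIs in 3 and 6 cells of WT, with up to 24 UMIs in 1 cell. The log2 fold change was 4.42 (SE 0.92, adjusted p = 0.0163, edgeR), and the adjusted p was 0.177 without WT library 1 and 0.111 without WT library 2.

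Both rare ligands were found in the Col6a5 cluster 4 of the third Ikkb_cKO library above all. That cluster had 51 of that library's 80 Cxcl5 UMIs, in 7 of 54 cells, and 25 of its 36 Cxcl3 UMIs, also in 7 cells. Cluster 4 of Ikkb_cKO libraries 1 and 2 had 9 and 0 Cxcl5 UMIs in 198 and 215 cells. Outside fibroblast-like cells Cxcl5 had no UMI in 2517 myeloid-like or 1162 lymphocyte-like cells, which allows up to 0.119% and 0.258% of cells with a UMI.

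**Figure D5:**
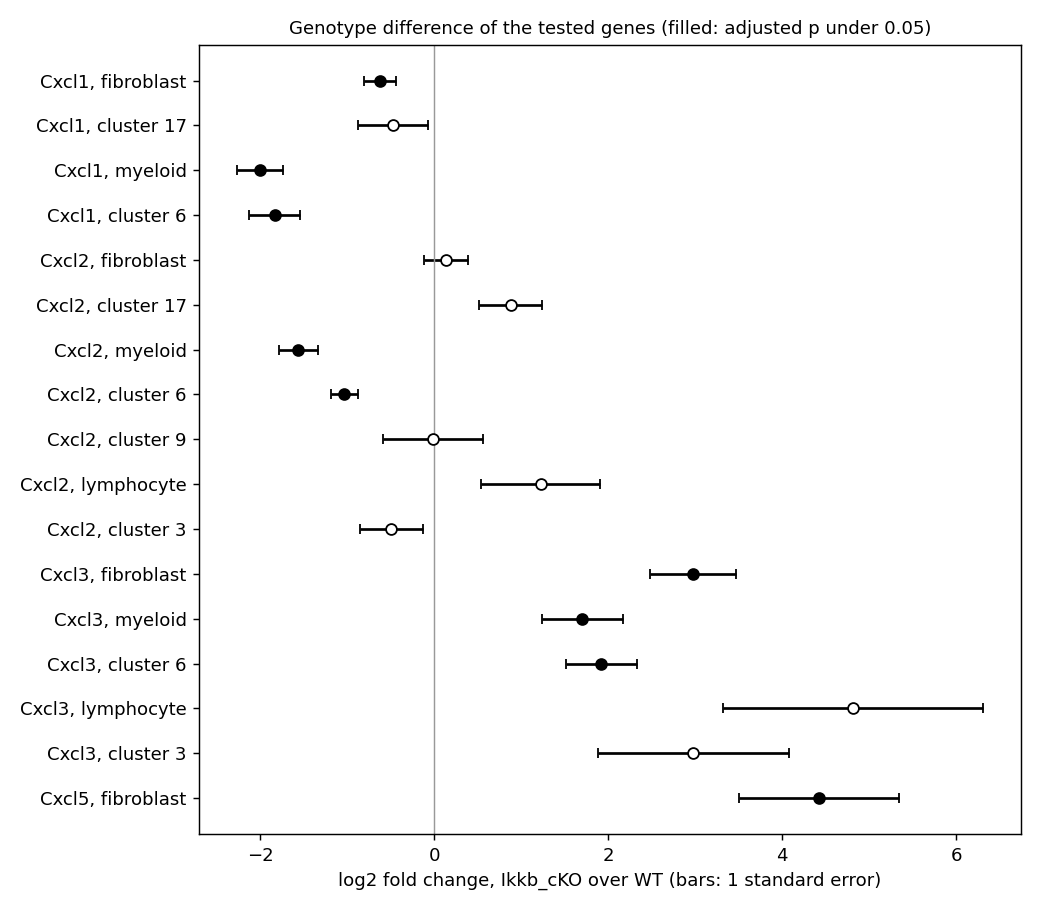
Log2 fold change of Ikkb_cKO over WT (horizontal axis) with 1 standard error for each gene in each class or cluster where it had enough UMIs for the test; filled points have an adjusted p under 0.05. Cxcl1 and Cxcl2 are lower in myeloid-like cells and in cluster 6, and Cxcl3 points to higher levels in every unit tested.

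Cxcr2, the receptor, marked the few neutrophils. With neutrophils taken as cells with UMIs of at least 4 of 10 marker genes such as S100a8, S100a9 and Retnlg, a list that Cxcr2 was not on, the libraries held 6, 4 and 5 such cells in Ikkb_cKO and 7 and 3 in WT. Cxcr2 was found in 18 of these 25 cells (72.0%), against 16 of 10365 other cells (0.154%), although neutrophils had a median of 1252 UMIs and other cells 3035. The 17 UMIs outside neutrophils lay in 11 clusters with at most 4 in any one. In every library the neutrophils had Cxcr2, at 1392, 861 and 850.1 CPM in Ikkb_cKO, against 1408 and 1435 CPM in WT, from 5 to 11 UMIs per library. No class had enough Cxcr2 UMIs for the test.

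Neutrophils made up 0.615%, 0.439% and 0.215% of kept cells in Ikkb_cKO, against 0.232% and 0.0947% in WT. The exact 95% binomial intervals of these shares overlapped between the genotypes (0.226% to 1.33% in Ikkb_cKO library 1 and 0.0935% to 0.478% in WT library 1). The means of 0.423% ± 0.200 and 0.164% ± 0.0974 (SD, n = 3 and 2) differed by an amount that missed the threshold (exact two-sided permutation p = 0.3), and the 10 cells of WT allow only a coarse comparison. The neutrophils themselves carried Cxcl2, in 14 of 25 cells with 98 UMIs, and 57 of these UMIs were in the 6 cells of Ikkb_cKO library 1. Cxcl3 had 7 UMIs in 2 of these cells. They had no Cxcl1 or Cxcl5 UMI, which with 25 cells allows up to 12% of cells.

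Whether the genotype difference itself differed between cell classes was tested with library as a block. For Cxcl1 the fold change in fibroblast-like minus that in myeloid-like cells was 1.35 on the log2 scale (SE 0.34, adjusted p = 0.0254, edgeR), so the fall was the larger one in myeloid-like cells. The adjusted p was 0.104 without WT library 1 and 0.0756 without WT library 2, and 16.9% of 8037 genes were called. For Cxcl2, fibroblast-like minus lymphocyte-like cells gave -1.03 (SE 0.26, adjusted p = 0.0213, edgeR, 7.30% of 4756 genes called). It was past the threshold neither with DESeq2's size factors (0.0684) nor without Ikkb_cKO library 2 (0.0784) or WT library 2. The part of the make-up of the lymphocyte-like class in this difference was not tested. The Cxcl2 difference between fibroblast-like and myeloid-like cells was 1.79 (SE 0.60, adjusted p = 0.154, edgeR), and without Ikkb_cKO library 1 or 3 the adjusted p was 0.0132 or 0.0012. Between lymphocyte-like and myeloid-like cells the Cxcl2 difference was 2.74 (SE 0.97, adjusted p = 0.284, edgeR, 5.40% of 4959 genes called). The Cxcl3 differences between classes had adjusted p-values of 0.104 to 0.816.

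The genes around the ligands were read from lists. The counts below are those past the adjusted threshold of 0.05 in edgeR. They compare with the shares of all genes called in each class. These were 17.4% higher and 17.9% lower in fibroblast-like cells, 8.53% and 9.22% in myeloid-like cells, and 6.64% and 4.34% in lymphocyte-like cells. Those shares hold for fits with every library. Leaving out a library also changed the number of all genes called, over ranges given at the end. List counts without a library therefore do not compare with those shares. Among upstream cytokines and receptors, 4 of 13 tested rose and 1 fell in fibroblast-like cells of Ikkb_cKO. Some of the listed receptor genes for signals that induce Cxcl1 were among those that rose: Tnfrsf1b (TNF receptor 2, log2 fold change 2.03, SE 0.23, adjusted p = 0.00232), Il1r1 (the signalling interleukin-1 receptor, 1.48, SE 0.19, adjusted p = 0.00286) and Il17ra (a subunit of the interleukin-17 receptor, 1.15, SE 0.17, adjusted p = 0.0042). Without WT library 1 or WT library 2 the list had 2 genes that rose and none that fell in each case. Tnf itself fell, at 0.46 normalised CPM in Ikkb_cKO and 7.53 in WT. The Ikkb_cKO level rests on very few UMIs, as 4 Cxcr2 UMIs there gave a mean of 0.68 CPM. The 26 myeloid markers summed to 76.8 to 142 CPM in fibroblast-like cells of Ikkb_cKO and 73.4 to 153 CPM in WT. Their part in the Tnf level was not tested. The median of the upstream list was 0.15, beside 0.05 for all genes tested. In myeloid-like cells 1 of 13 rose, Il1rn (the interleukin-1 receptor antagonist, 1.2997, SE 0.25, adjusted p = 0.00537), and 2 fell, among them Tnf (-1.84, SE 0.23, adjusted p = 0.000542).

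The NF-kB pathway list had 21 tested genes in fibroblast-like cells, with 5 that rose, 2 that fell and a median of 0.20, where 17.4% of all genes were called higher and 17.9% lower. The calls in this list were lost when either WT library was left out, and the number of all genes called in the class also moved with the library left out. Tab2 (1.28, SE 0.18) and Map3k7 (1.11, SE 0.17), which together form the TAK1 complex above IKK, and the NF-kB subunit gene Rel (0.93, SE 0.21) rose, and Nfkbib, an inhibitor of NF-kB, fell (-0.74, SE 0.15). In myeloid-like cells 4 of 21 rose and 3 fell. Nfkbiz, a nuclear cofactor of NF-kB, fell by 1.36 on the log2 scale (SE 0.17, adjusted p = 0.000478), and Map3k14, the kinase of the alternative NF-kB route, rose by 1.28 (SE 0.24, adjusted p = 0.00464).

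In fibroblast-like cells 17.4% of all genes were called higher and 17.9% lower, with a median of 0.05. Of 8 regulators of chemokine mRNA decay 4 rose there and none fell, with a median of 0.68. Only 1 was called without WT library 1 and none without WT library 2. Zc3h12a, the RNase regnase-1, rose by 1.47 (SE 0.20), Khsrp by 1.35 (SE 0.20), Rc3h1, which encodes roquin-1, by 1.28 (SE 0.27) and Zfp36l1 by 0.93 (SE 0.15), the largest adjusted p being 0.0125. In myeloid-like cells 2 of 8 rose and 1 fell, with Khsrp up (1.51, SE 0.29) and Zfp36, the gene of tristetraprolin, down (-0.91, SE 0.15, adjusted p = 0.00246).

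Other genes that interleukin-17 and TNF induce together with Cxcl1 were called in both directions. Some genes are on more than 1 list and are counted in each, also in the sums of calls over the lists. Here they include Zc3h12a of the decay regulators and Nfkbiz of the NF-kB list. In fibroblast-like cells 3 of 13 rose and 1 fell (median 0.67), where 17.4% of all genes were called higher and 17.9% lower. Il6 rose (2.08, SE 0.18, adjusted p = 0.00145), as did the transcription factor gene Cebpb (2.62, SE 0.31), while Ccl2, the monocyte chemokine, fell (-1.11, SE 0.13, adjusted p = 0.00228). In myeloid-like cells 3 of 12 rose and 6 fell (median -0.84), with Cebpb higher there too (1.56, SE 0.22). A further list joined neutrophil survival factors, mobilising factors and attractants with some of their receptors and enzymes. Its genes are called attractants below for short. Of this list 1 of 10 rose in fibroblast-like cells, Cxcr4 (2.77, SE 0.62, adjusted p = 0.0184, edgeR), and none fell. The growth factor gene Csf2 had a log2 fold change of 0.85 (adjusted p = 0.0541, edgeR) and Cxcl12 0.81 (adjusted p = 0.0938, edgeR). In myeloid-like cells 2 of 13 rose, among them Mif (1.20, SE 0.19), and 5 fell, among them the C5a receptor gene C5ar1 (-2.24, SE 0.25, adjusted p = 0.000266).

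The immediate early and dissociation list had 20 tested genes in both classes. Of all genes, 17.4% were called higher and 17.9% lower in fibroblast-like cells, and 8.53% and 9.22% in myeloid-like cells. In fibroblast-like cells 5 of 20 rose and 1 fell, with Dusp1 at 1.20 (SE 0.15) and Jund at 1.12 (SE 0.20). These counts were 13 and 3 without the third Ikkb_cKO library and were smaller when either WT library was left out. The number of all genes called in the class also moved with the library left out. In myeloid-like cells 1 of 20 rose and 8 fell (4 fell without WT library 1 and 5 without WT library 2), with Jun at -2.12 (SE 0.22) and Egr1 at -2.07 (SE 0.29), and the summed level was 8329 to 10902 CPM in Ikkb_cKO, against 11894 to 13851 CPM in WT. Within cluster 6, where Cxcl1 and Cxcl2 fell, the sums were 9141 to 12173 CPM in Ikkb_cKO and 9526 to 10130 CPM in WT and did not separate the genotypes. Within cluster 21 they were higher, at 22327 to 30552 CPM in Ikkb_cKO (8, 21 and 112 cells), against 17449 to 20236 CPM in WT. Within cluster 9 they were lower, at 5651 to 7478 CPM in Ikkb_cKO, against 7851 to 9637 CPM in WT. The part of these genes in the chemokine levels was not tested. In lymphocyte-like cells 4 of 19 NF-kB genes rose and none fell. None of 6 genes of the attractant list, which there included receptors and enzymes, was called. None of 5 interleukin-17 and TNF-induced genes and 16 immediate early genes was called either. Without the third Ikkb_cKO library 3 of those 6 genes and 8 of the 16 immediate early genes rose, and of the 5 induced genes 1 rose and 1 fell. Without WT library 1 or WT library 2, 2 and 1 of the 19 NF-kB genes rose.

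The other list counts also moved when a library was left out, as did the number of all genes called. In fibroblast-like cells without the third Ikkb_cKO library, 4 upstream genes rose and 4 fell, 5 interleukin-17 and TNF-induced genes rose and 4 fell, and 3 attractants rose and 2 fell. No attractant was called there without WT library 1 or without WT library 2. In myeloid-like cells without WT library 1, 1 NF-kB gene rose and 1 fell, no decay regulator rose and 1 fell, 1 induced gene rose and 3 fell, and no attractant rose and 2 fell. Without WT library 2, no NF-kB gene rose and 1 fell, no decay regulator was called, 1 induced gene rose and 3 fell, and 1 attractant rose and 2 fell.

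The genes most like each ligand were taken over 29 class-by-library sums from 8 classes, by Pearson's r of log2(CPM + 10), as a description with shared libraries and depth. Cxcl1 was most like Tpst1 (0.96), Csrp2, Serping1, Pcolce and C1s1 (0.95 each). Cxcl2 was most like Sp140 (0.88), Slc9a9, Arsb, Sp110 and Casp1 (0.85 to 0.87). Cxcl3 was most like Il9r (0.89), Pcsk1, Arg1, Ttc39c and Xlr4c (0.86 to 0.88). Cxcl5 was most like Ccbe1 (0.97), Col11a1, Krt8, Sox11 and Psd, on only 115 UMIs.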

How the data were processed

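Single-cell RNA-seq was read as the authors' deposited matrices of UMI counts per gene and barcode, made with Cell Ranger 1.3.0 and mm10 per the submitters' processing notes (the matrix headers name software version 3.0.1). The sources used here do not state further counting settings. The members and gene lists were chosen with earlier results of these data known.

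Barcodes under 300 genes or over 10% mitochondrial UMIs were dropped, which kept 10611 of 11084. Scrublet's own threshold marked too few barcodes, so the expected share of top scores, 0.008 per 1000 cells, was removed from each library (221 barcodes, 2.08%). Cells were clustered with scanpy 1.11.5 (2000 variable genes without the 5 members, 30 components, 15 neighbours, Leiden resolution 1, no integration). Clusters were named by class from at least 3 listed markers among their top 50 genes with a lead of 2, and 28 of 30 clusters were named. The types of fibroblast and myeloid clusters were named in the same way with a lead of 1. UMIs were summed per library and class and tested with edgeR 4.0.16 (quasi-likelihood, TMM factors, low-count filter, Benjamini-Hochberg adjustment over all genes of the class, threshold 0.05) in classes with at least 20 cells per library. The difference of genotype effects between classes was fitted with the library as a block, on genes past the filter in both classes. Shares at equal depth were taken after thinning cells to 1000 UMIs, with a random draw that was changed once after its values had been seen, so shares of genes found in few cells are not tested in the text. Exact permutation tests with 3 against 2 libraries cannot go below 0.1, and binomial intervals and limits for 0 counts (3 counts) cover counting error only. The 95% intervals of log2 fold changes are the estimate plus and minus its SE times the t quantile at 3 degrees of freedom. They rest on the spread between libraries and can differ from edgeR's p-values.

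The text names the 5 genes and Ikbkb, from each list up to 4 genes with the smallest p in fibroblast-like cells and up to 2 in myeloid-like cells, and the 5 genes most correlated with each ligand. The same-numbered libraries did not deviate together (correlations -0.0522 to 0.0415), so the replicate number was not used as a block. Alternatives were other normalisations (DESeq2 1.42.0 size factors), other tests (DESeq2, limma 3.58.1 voom), filters, resolutions, thinning, equal cell numbers and leaving out each library. The tests within clusters 3, 6 and 9 were chosen after seeing the data. A few lines of the matrices (71) shared 35 symbols with another line.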

Additional observations from a re-analysis of the deposited data

Results flagged for a closer look

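The genotype difference of Cxcl1 was not the same size in fibroblast-like and myeloid-like cells by a test of the difference itself. Cxcl1 averaged 1114 CPM in Ikkb_cKO and 1668 CPM in WT in fibroblast-like cells, and 25.6 CPM in Ikkb_cKO and 118 CPM in WT in myeloid-like cells. The fibroblast-like minus myeloid-like difference in log2 fold change was 1.35 (adjusted p = 0.0254, edgeR). This call was lost when either WT library was left out.

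The genotype difference of Cxcl2 was also called as different, between fibroblast-like and lymphocyte-like cells, but this call depended on the processing. In lymphocyte-like cells Cxcl2 had 443 to 1346 CPM in Ikkb_cKO and 360 to 614 CPM in WT, and in fibroblast-like cells 192 to 359 CPM in Ikkb_cKO and 243 to 274 CPM in WT. The fibroblast-like minus lymphocyte-like difference was -1.03 (adjusted p = 0.0213, edgeR). The call was lost with DESeq2's size factors and when some single libraries were left out. Within cluster 3, which held most of the lymphocyte-like Cxcl2 UMIs, the log2 fold change was -0.50 (SE 0.36) and the levels overlapped. Cluster 3 made up 38.7% to 60.9% of the lymphocyte-like cells in Ikkb_cKO, against 20% to 22.8% in WT. The part of this make-up in the difference was not tested.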

How the results depend on the processing

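Of 167 recomputed values of the genes under alternatives that kept all libraries, 146 kept their direction and side of the threshold, 8 lost and 9 gained a call, 1 reversed and 3 moved. Of 165 that left out 1 library, 129 kept both, 18 lost and 12 gained a call and 6 reversed. The cause of none of these changes was tested.

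In fibroblast-like cells the Cxcl1 log2 fold change was -0.58 with doublets kept (adjusted p = 0.0561, edgeR), that of Cxcl5 was 4.30 without the low-count filter (0.0944), and Cxcl3 and Cxcl5 could not be tested at 1000 UMIs, nor Cxcl3 at equal cell numbers. In myeloid-like cells Cxcl3 was 1.59 in DESeq2 (0.116), 1.39 at equal cell numbers (0.198) and 1.85 at 1000 UMIs (0.0601), where an earlier draw had kept the call. In lymphocyte-like cells Cxcl3 was 4.89 in DESeq2 (0.00096) and 5.345 at equal cell numbers (0.0218). Without the low-count filter Cxcl1 was -0.83 in cluster 17 (0.000732) and Cxcl3 3.28 in cluster 3 (1.42e-07). With DESeq2's size factors the Cxcl2 difference of fibroblast-like minus lymphocyte-like cells was -0.93 (0.0684), and 91 genes were higher and 152 lower, against 79 and 268 with TMM. The Cxcl2 share in fibroblast-like cells reversed without thinning, to -1.30 percentage points. At 1000 UMIs mean Cxcl1 was 1477 CPM in WT fibroblast-like cells, and mean Cxcl2 in myeloid-like cells was 1405 CPM in Ikkb_cKO and 3287 CPM in WT.

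The replicate number is shared only as a label, and the third replicate exists in Ikkb_cKO alone. With it as a replicate block, Cxcl2 was 0.36 in fibroblast-like cells (adjusted p = 0.000878, edgeR) and 1.64 in lymphocyte-like cells (9.19e-06). Cxcl3 was 1.37 in myeloid-like cells (0.0926), 5.285 in lymphocyte-like cells (2.13e-07), 3.23 in cluster 3 (5.1e-10) and 1.38 in cluster 6 (0.229), and Cxcl1 was -1.11 in cluster 17 (6.91e-11).

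Genes called in fibroblast-like cells numbered 1990 at 1000 UMIs, against 3717. In myeloid-like cells they numbered 911 in DESeq2, 794 at equal cell numbers and 891 at 1000 UMIs, against 1598. In lymphocyte-like cells they numbered 1059 with the block, 321 in DESeq2, 900.0 in limma voom and 232 at 1000 UMIs, against 572.

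Leaving out each library gave these ranges of log2 fold changes. In fibroblast-like cells Cxcl1 was -0.71 to -0.48, Cxcl2 -0.028 to 0.34, Cxcl3 2.17 to 3.23 and Cxcl5 3.20 to 5.66. In myeloid-like cells Cxcl3 was 1.01 to 2.63, and in lymphocyte-like cells Cxcl2 was 0.90 to 1.66 and Cxcl3 4.045 to 5.31. Cxcl1 in cluster 17 was -1.23 to -0.33 and Cxcl2 there 0.21 to 1.21. In cluster 3 Cxcl2 was -0.68 to 0.0083 and Cxcl3 2.275 to 3.48. Cxcl3 in cluster 6 was 1.43 to 2.05. Cxcl2 in cluster 9 was -0.72 to 0.75, with 0.29 and 0.03 without Ikkb_cKO libraries 1 and 2. The class differences were 1.08 to 2.18 for Cxcl1 and 1.35 to 2.23 for Cxcl2 (fibroblast-like minus myeloid-like), -1.35 to -0.79 and -3.18 to -0.72 for Cxcl2 and Cxcl3 (fibroblast-like minus lymphocyte-like) and 2.16 to 3.42 and 1.815 to 3.985 (lymphocyte-like minus myeloid-like). The Cxcl1 share in fibroblast-like cells differed by -6.82 to 6.01 percentage points, the higher value without Ikkb_cKO library 3. Calls numbered 492 to 5511 in fibroblast-like, 424 to 1803 in myeloid-like and 85 to 1156 in lymphocyte-like cells, and calls over the gene lists 6 to 57, 16 to 45 and 2 to 24, against 30, 41 and 8.

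Cxcl3, Cxcl5 and Cxcr2 rest on few UMIs, so small differences in them were not detectable at this depth.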
